A study of Homo sapiens with 12 samples.

Results

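Imprinted genes are genes of which a cell mainly uses the copy inherited from 1 parent. The copy to be used is marked in the germ line, mostly by DNA methylation at control regions that each govern a domain of neighbouring genes, and many of these genes steer growth, metabolism and the differentiation of muscle, placenta and brain. Here 31 human imprinted genes of 16 domains were followed, chosen by name from a list that leaves out IGF2; each of the 31 symbols matched 1 of the 61552 gene identifiers in the files. The cells were RD, an established embryonal rhabdomyosarcoma line, that is, of a tumour with features of skeletal muscle that has not matured; the labels give its genotype as FN-RMS. In 3 libraries they had received siRNA against EHMT1 and in 3 libraries scrambled siRNA, both carried in with Lipofectamine RNAiMAX, and poly-A RNA was sequenced 48 h later. The 6 libraries of an experiment with SOX8 siRNA are not used here. All libraries come from the same tumour line, and the gene counts do not tell the parental copies apart.

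EHMT1, also named GLP, works with its partner EHMT2 (G9a) as a methyltransferase of lysine 9 on histone H3. As background, in mouse placenta the long RNA Kcnq1ot1 has been linked to G9a at the genes that it silences, and inhibitors of G9a have been used to switch on silent maternal genes of the Prader-Willi region on chromosome 15. The comparison shows which imprinted transcripts differed once EHMT1 was lowered.

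EHMT1 (ENSG00000181090) stood at 53.2, 54.4 and 57.6 CPM (each count over the library total, scaled with TMM factors) in the EHMT1 siRNA libraries, against 131, 156 and 130.1 CPM in the scrambled siRNA libraries. EHMT1 thus fell by 1.34 on the log2 scale (SE 0.0715, edgeR adjusted p = 9.13e-09). A two-sided exact permutation test of the CPM gave 0.1, the smallest p that 3 against 3 libraries allow. Libraries held 40639655 to 47258481 gene counts, so that 3 counts, the limit for a gene with none, equal 0.0635 to 0.0738 CPM; such limits cover counting error only. On the first principal component the EHMT1 siRNA libraries lay at -21.6 to -19.6 and the scrambled libraries, which were more spread, at 16.0, 36.4 and 9.16. Of 8 markers of rhabdomyosarcoma or immature muscle, 7 had at least 1 CPM in scrambled libraries, MYOD1, MYOG and DES among them, while MYF5 had 0 counts in all 6 libraries. In that list PAX7 and CHRNG rose, and its summed level was 1273 to 1334 CPM with EHMT1 siRNA and 1128 to 1278 CPM with scrambled siRNA; its part in the results below was not tested. Of 25 markers of other cell types 5 had at least 1 CPM in scrambled libraries, with KRT18 and COL1A1 the highest. Of the 25, 0 were called changed, but many had too few counts to be tested. Among all genes tested 12.4% were called (edgeR adjusted p under 0.05). The haematopoietic markers summed to at most 0.928 CPM with EHMT1 siRNA and 1.15 CPM with scrambled siRNA.

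Of the 31 imprinted genes, 25 passed the filter on low counts. With EHMT1 siRNA 2 of them rose, MAGEL2 and BLCAP, and 1 unstranded count fell, that listed under ZIM2, whose reads lay mostly on the strand opposite to that gene (161 counts, against 7 on its own strand). These 3 calls are 12% of those tested, against 12.4% of all 18646 genes tested (edgeR adjusted p under 0.05), a share near the background; risen genes were 5.81% and fallen genes 6.54% of all. At an unadjusted p under 0.05 there were 9 of the 25, or 36%, against 25.6% of all genes tested. The median log2 fold change was 0.03 for the imprinted genes and 0.00 for all genes, and the median absolute change was 0.14 and 0.15. Values of the 3 EHMT1 siRNA libraries all lay on 1 side of the scrambled ones for 10 of the 25, or 40.0%, against 30.9% of all genes tested. By the parental origin listed for each gene, 6 of 8 maternally used genes could be tested and 0 changed. That origin can hold in only some tissues: UBE3A, among the 6, is imprinted in neurons. Which copy RD cells use was not tested. An unadjusted p under 0.05 was seen for 1 of these 6, or 16.7%, and DESeq2 called 0. Of 19 paternally used genes, 15 were tested and 1 rose, MAGEL2; the unstranded count of 1 more, ZIM2, fell, with the same limit on its strand. At an unadjusted p under 0.05 there were 7 of these 15, the ZIM2 count among them, or 46.7%, against 25.6% of all genes tested. DESeq2 also called PEG10 risen. In bulk RNA, fewer cells with a transcript and less of it per cell cannot be told apart.

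**Figure D1:**
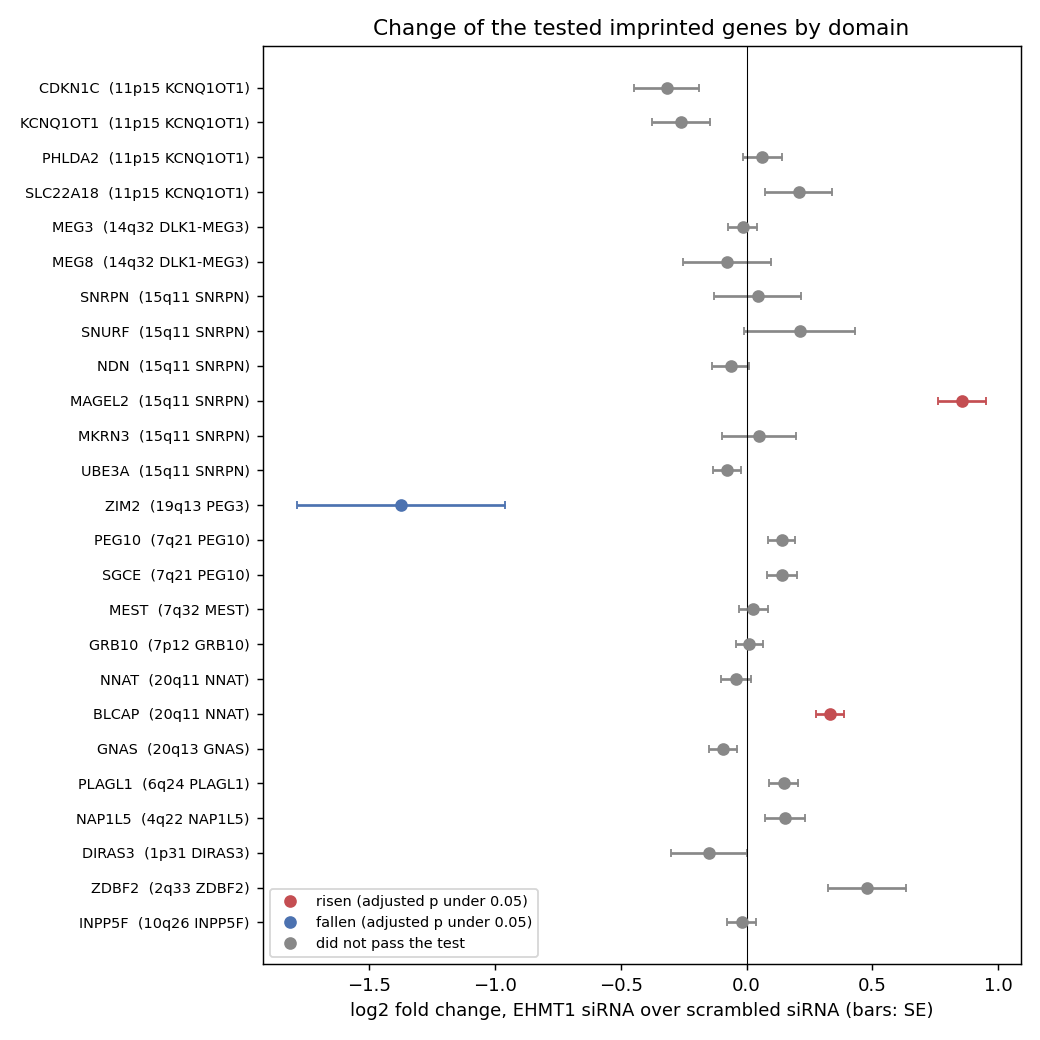
Log2 fold change (horizontal axis, EHMT1 siRNA over scrambled siRNA, bars show the SE) of the 25 tested imprinted genes, listed by domain. MAGEL2 at 0.86 and BLCAP at 0.33 lie to the right and the unstranded count of ZIM2 at -1.37 far to the left, while most genes lie close to 0.

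Levels between genes were compared per length, as RPKM over the union of exons in GENCODE release 29, so a gene with long unused exons is set too low. A gene that shares exon bases with another, such as MEST, can also be set too low in unstranded counts. The order was headed by MEST at 193 ± 1.66 RPKM with EHMT1 siRNA and 189 ± 9.37 RPKM with scrambled siRNA (SD, n = 3 each), PEG10 at 158 ± 1.17 and 143 ± 3.46, and GNAS at 124 ± 1.49 and 132 ± 6.49 RPKM. These 3 did not overlap with each other within either group. NNAT, NDN and PHLDA2 followed at 46.9, 41.3 and 39.8 RPKM with EHMT1 siRNA and 48.3, 43.1 and 38.2 RPKM with scrambled siRNA, and in scrambled libraries NNAT overlapped with NDN, and NDN with PHLDA2. With scrambled siRNA 20 of the 31 had at least 1 RPKM. Under 0.1 RPKM lay 6 genes, H19, KCNQ1, DLK1, RTL1, PEG3 and L3MBTL1, the same 6 that failed the filter.

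**Figure D2:**
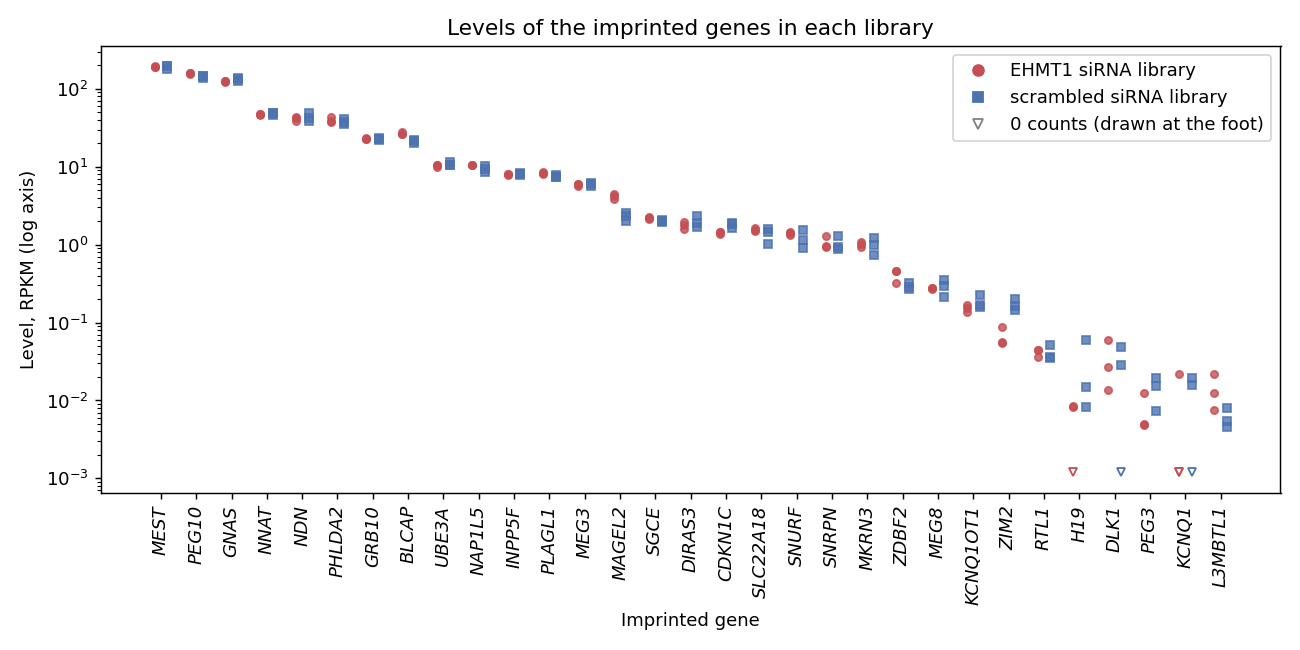
Level of each of the 31 imprinted genes in each library (RPKM, log axis), EHMT1 siRNA libraries as circles left of scrambled siRNA libraries as squares, with open triangles for libraries with 0 counts. MEST, PEG10 and GNAS lead, and for MAGEL2 and ZIM2 the groups are visibly apart.

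Chromosome 15q11, the Prader-Willi and Angelman region, held the member with the lowest adjusted p. MAGEL2 (ENSG00000254585), a MAGE-family protein that aids ubiquitin-dependent recycling of membrane proteins from endosomes, had 18.03, 16.4 and 19.1 CPM with EHMT1 siRNA and 8.68, 9.96 and 10.97 CPM with scrambled siRNA. Every EHMT1 siRNA library lay above every scrambled library. The level rose 1.81-fold, a log2 fold change of 0.86 (SE 0.0962, edgeR adjusted p = 2.52e-05). The call held under all 12 alternatives, with changes of 0.77 to 0.94 and adjusted p up to 0.00043.

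NDN, the gene of necdin, is a second MAGE-family gene beside MAGEL2 and restrains cell growth. It had 81.5, 73.9 and 83.6 CPM with EHMT1 siRNA and 81.0, 75.3 and 93.3 CPM with scrambled siRNA, groups that overlapped, at a log2 fold change of -0.06 (SE 0.0745, edgeR adjusted p = 0.655). Per length, MAGEL2 stood at 9.89%, 9.94% and 10.2% of NDN in the EHMT1 siRNA libraries and at 4.79%, 5.91% and 5.26% in the scrambled ones, a pair set side by side after the values were seen and not tested.

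The start regions of both genes and that of the SNURF-SNRPN unit, where the control region of the domain lies, are printed because MAGEL2 passed the test and the others did not, a difference between genes that was not itself tested; NDN and SNURF were added after values were seen. Each window runs from 250 bases before to 50 bases after a start (RefSeq, GRCh38.p14, read 5′ to 3′ on the gene's strand). Capitals mark TGCCGC or its reverse complement GCGGCA, the core of the motif of ZFP57, a zinc finger protein that keeps imprints methylated.
MAGEL2, chr15:23647818-23648117, minus strand: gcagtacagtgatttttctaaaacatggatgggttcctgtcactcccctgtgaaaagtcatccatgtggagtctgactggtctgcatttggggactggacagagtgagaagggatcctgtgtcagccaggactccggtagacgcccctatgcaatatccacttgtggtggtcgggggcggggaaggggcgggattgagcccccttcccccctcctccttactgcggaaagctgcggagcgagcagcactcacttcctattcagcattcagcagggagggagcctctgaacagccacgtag
NDN, chr15:23687256-23687555, minus strand: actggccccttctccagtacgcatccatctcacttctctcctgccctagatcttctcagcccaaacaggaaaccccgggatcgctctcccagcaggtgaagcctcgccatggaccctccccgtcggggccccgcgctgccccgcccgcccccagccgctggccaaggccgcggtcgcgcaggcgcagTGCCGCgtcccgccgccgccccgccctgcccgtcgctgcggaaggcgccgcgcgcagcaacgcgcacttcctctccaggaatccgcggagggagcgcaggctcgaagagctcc
SNURF and SNRPN, chr15:24954737-24955036, plus strand: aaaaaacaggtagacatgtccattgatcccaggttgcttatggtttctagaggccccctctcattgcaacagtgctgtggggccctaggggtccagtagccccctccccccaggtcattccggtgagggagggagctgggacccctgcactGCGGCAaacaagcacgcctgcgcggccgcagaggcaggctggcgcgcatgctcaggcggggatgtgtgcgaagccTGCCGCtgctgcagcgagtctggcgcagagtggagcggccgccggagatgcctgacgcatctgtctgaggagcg
The MAGEL2 window held 9 CpG dinucleotides and 0 matches, the NDN window 35 CpG and 1 match, and the SNURF window 18 CpG and 2 matches. The median window of the RefSeq table held 14 CpG. A match was present in 16.7% of all 35114 windows. Of the imprinted genes 19 had windows in the table, 48 windows in all, and 43.8% of these held a match. Some of the 48 overlap, and the SNURF window is counted again under SNRPN. Their median was 18 CpG, so the 2 shares are not from windows alike in CpG. ZFP57 itself had 0 counts in all 6 libraries. A match is a run of letters and not a bound site.

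The other genes of the region did not pass the test. SNRPN, a spliceosome protein, had 3.26, 3.21 and 4.42 CPM with EHMT1 siRNA and 3.03, 3.15 and 4.38 CPM with scrambled siRNA. SNURF, read from the same transcript, had 1.70, 1.54 and 1.64 CPM, against 1.35, 1.05 and 1.81 CPM in scrambled libraries. SNURF shares 69.3% of its exon bases with SNRPN, so unstranded counts of both leave out reads that could belong to either. MKRN3, a ubiquitin ligase that holds back puberty, had 6.27, 5.91 and 5.35 CPM with EHMT1 siRNA and 6.88, 4.23 and 5.75 CPM with scrambled siRNA. UBE3A, the ubiquitin ligase lost in Angelman syndrome and imprinted in neurons, had 134, 133 and 129 CPM with EHMT1 siRNA and 146, 137 and 135 CPM with scrambled siRNA. Its groups did not overlap, but at a log2 fold change of -0.08 (SE 0.0559) the edgeR adjusted p was 0.429. Adjusted p of SNRPN, SNURF and MKRN3 was 0.907, 0.607 and 0.873 (edgeR).

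Chromosome 20q11 holds a nested pair: NNAT, a small membrane protein of the endoplasmic reticulum, lies within an intron of BLCAP, a membrane protein with growth-restraining activity. BLCAP (ENSG00000166619) had 208, 206 and 216 CPM with EHMT1 siRNA and 169, 159 and 174 CPM with scrambled siRNA, with no overlap between groups. It rose 1.26-fold, a log2 fold change of 0.33 (SE 0.0567, edgeR adjusted p = 0.00108). That call also held under all 12 alternatives, with changes of 0.29 to 0.36 and adjusted p up to 0.0181. NNAT had 63.5, 61.3 and 62.5 CPM with EHMT1 siRNA and 65.6, 66.1 and 61.2 CPM with scrambled siRNA, overlapping groups with an edgeR adjusted p of 0.707. The first RefSeq start window listed for BLCAP, shown because the gene passed the test, held 22 CpG and 1 match, in capitals.
BLCAP, chr20:37527827-37528126, minus strand: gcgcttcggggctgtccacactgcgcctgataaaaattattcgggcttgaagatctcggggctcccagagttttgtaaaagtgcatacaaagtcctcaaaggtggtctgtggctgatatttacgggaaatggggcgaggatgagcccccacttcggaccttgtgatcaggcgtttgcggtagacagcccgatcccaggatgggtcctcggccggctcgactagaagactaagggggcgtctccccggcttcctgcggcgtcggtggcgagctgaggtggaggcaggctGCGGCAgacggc

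The paternally used zinc finger genes PEG3 and ZIM2 of 19q13 share first exons, and 41.2% of the exon bases of ZIM2 also belong to PEG3. ZIM2 (ENSG00000269699) had 0.166, 0.265 and 0.171 CPM with EHMT1 siRNA and 0.620, 0.501 and 0.447 CPM with scrambled siRNA. The groups did not overlap, and the unstranded count fell by 1.37 on the log2 scale (SE 0.414, edgeR adjusted p = 0.0381). The call rests on 93 counts in 6 libraries and was lost when any library other than scrambled replicate 2 was left out, with adjusted p of 0.0521 to 0.158. The strand columns show that these reads ran mostly against ZIM2. Its own strand (column 4) held 0, 3 and 0 counts with EHMT1 siRNA and 1, 3 and 0 with scrambled siRNA. The opposite strand (column 3) held 16, 21 and 17 counts with EHMT1 siRNA and 42, 41 and 24 with scrambled siRNA. The fall is thus one of counts on the strand opposite to ZIM2, and ZIM2 in column 4 was too low to test. PEG3 had 2, 5 and 2 unstranded counts with EHMT1 siRNA and 9, 6 and 3 with scrambled siRNA, too few to test. In column 4 PEG3 had 10, 16 and 7 counts with EHMT1 siRNA and 18, 6 and 7 with scrambled siRNA, groups that overlapped.

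Column 4 held the gene's own strand for nearly all of the list. Of 23 imprinted genes with at least 500 strand counts, 19 had at least 85% of them in column 4; CDKN1C, PHLDA2 and NNAT had 78.9% to 87.9% by library. SGCE differed, at 51.3%, 50.2% and 49.0% with EHMT1 siRNA and 47.3%, 48.2% and 48.8% with scrambled siRNA. It shares 219 exon bases with the far more abundant PEG10 on the other strand, and the source of its column 3 counts was not tested. RTL1 had 62 counts in column 3 and 6 in column 4 over the 6 libraries. For MKRN3 column 4 held 3481 counts where the unstranded column held 1464, and 205 of its exon bases are shared with a gene on the other strand; its log2 fold change in column 4 was 0.02.

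**Figure D3:**
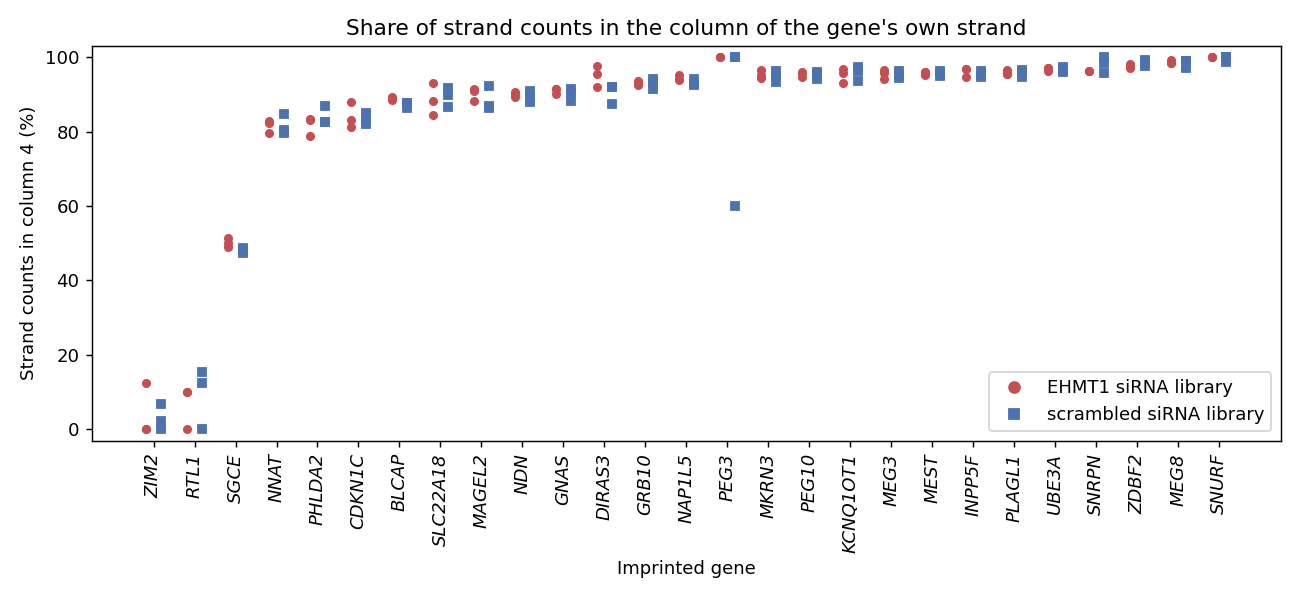
Share of strand counts in column 4 (per cent) for the 27 imprinted genes with at least 50 strand counts, EHMT1 siRNA libraries as circles left of scrambled siRNA libraries as squares. ZIM2 and RTL1 lie at 15.4% or less and SGCE near 49.1%; all libraries of the genes to their right lie higher, the lowest a scrambled library of PEG3 at 60.0%.

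Chromosome 11p15 is split into an H19 and IGF2 domain and a KCNQ1OT1 domain. H19, a maternally used long RNA and the host of miR-675, had 1, 0 and 1 counts with EHMT1 siRNA and 2, 7 and 1 with scrambled siRNA, so no change could be tested. IGF2, the growth factor gene that alternates with H19, was abundant, at 3753 ± 135 CPM with EHMT1 siRNA and 3349 ± 416 CPM with scrambled siRNA (SD, n = 3 each), a log2 fold change of 0.16 (edgeR adjusted p = 0.185). The change of IGF2 depended on the scrambled libraries: it passed at 0.23 without replicate 2 (adjusted p = 0.0163) and was 0.06 without replicate 1 (adjusted p = 0.558). Per length IGF2 stood at 538 RPKM with EHMT1 siRNA and 479.8 RPKM with scrambled siRNA, against 0.00553 and 0.0278 RPKM for H19.

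KCNQ1OT1, the paternally used long RNA that silences its neighbours, had 12.5, 15.5 and 14.2 CPM with EHMT1 siRNA and 15.2, 14.7 and 20.5 CPM with scrambled siRNA. Its groups overlapped, at a log2 fold change of -0.26 (SE 0.115, edgeR adjusted p = 0.162); without scrambled replicate 2 it passed at -0.35 (adjusted p = 0.0381), and without scrambled replicate 3 it was -0.10 (adjusted p = 0.603). CDKN1C, the cyclin-dependent kinase inhibitor p57, had 3.64, 3.40 and 3.64 CPM with EHMT1 siRNA and 4.04, 4.71 and 4.59 CPM with scrambled siRNA. All of its EHMT1 siRNA libraries were below the scrambled ones, yet the change of -0.32 (SE 0.130) did not pass (edgeR adjusted p = 0.128).

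PHLDA2, which restrains placental growth, had 35.7, 36.4 and 42.1 CPM with EHMT1 siRNA and 34.0, 35.9 and 39.4 CPM with scrambled siRNA. SLC22A18, a transporter of the organic cation family, had 7.996, 8.63 and 8.28 CPM with EHMT1 siRNA and 5.45, 8.54 and 7.65 CPM with scrambled siRNA. Both overlapped between the groups (edgeR adjusted p = 0.670 and 0.356). KCNQ1, a potassium channel subunit, had 0, 4 and 0 counts with EHMT1 siRNA and 4, 0 and 3 with scrambled siRNA, near the counting limit in both groups. A link between its level and that of KCNQ1OT1 was not tested.

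In the 14q32 domain the maternally used long RNA MEG3, a growth suppressor in several tumours, had 133, 138 and 139 CPM with EHMT1 siRNA and 131, 144 and 140.4 CPM with scrambled siRNA. These values overlapped, with a log2 fold change of -0.02 (SE 0.0570, edgeR adjusted p = 0.896). MEG8, a long RNA downstream of it, had 2.98, 3.06 and 3.10 CPM with EHMT1 siRNA and 3.93, 2.35 and 3.32 CPM with scrambled siRNA (edgeR adjusted p = 0.830). The paternally used DLK1, a Notch-like membrane protein of immature cells, had 6, 13 and 3 counts with EHMT1 siRNA and 7, 0 and 11 with scrambled siRNA. RTL1, derived from a retrotransposon, had 8 to 10 counts with EHMT1 siRNA and 8 to 11 with scrambled siRNA, mostly on the opposite strand, where miRNA genes of the domain lie.

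Both members of the 7q21 pair were slightly higher without passing the test. PEG10, a gag-like protein of retrotransposon origin needed for the placenta, had 1059, 1058 and 1045 CPM with EHMT1 siRNA and 966, 931 and 974 CPM with scrambled siRNA. SGCE, epsilon-sarcoglycan of the dystrophin complex, starts beside PEG10 on the other strand and had 47.1, 46.1 and 44.0 CPM with EHMT1 siRNA and 41.5, 42.7 and 40.4 CPM with scrambled siRNA. Neither overlapped between groups, each with a log2 fold change of 0.14 (SE 0.0540 and 0.0606, edgeR adjusted p = 0.107 and 0.153); DESeq2 called PEG10 (adjusted p = 0.0352).

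On chromosome 7, 2 further genes were close to even. MEST, an enzyme of the alpha/beta-hydrolase fold, had 934, 923 and 919 CPM with EHMT1 siRNA and 933, 856 and 934 CPM with scrambled siRNA. It shares exon bases with genes on the other strand, and column 4 held 311144 counts where the unstranded column held 232961. In column 4 the log2 fold change of MEST was 0.08 (edgeR adjusted p = 0.411). GRB10, an adaptor that dampens insulin and IGF receptor signalling, had 221, 227 and 221 CPM with EHMT1 siRNA and 215, 222 and 227 CPM with scrambled siRNA. Both overlapped between the groups, with log2 fold changes of 0.03 (SE 0.0567) and 0.01 (SE 0.0537) and edgeR adjusted p of 0.818 and 0.926.

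Of the genes that stand for a domain of their own, ZDBF2 came closest to the threshold. ZDBF2, a zinc finger gene of 2q33, had 4.97, 5.04 and 3.52 CPM with EHMT1 siRNA and 3.16, 2.98 and 3.56 CPM with scrambled siRNA. EHMT1 siRNA replicates 1 and 2 lay above all scrambled libraries and replicate 3 among them, and the log2 fold change of 0.48 (SE 0.155) had an edgeR adjusted p of 0.0525. Without EHMT1 siRNA replicate 3 it passed at 0.63 (adjusted p = 0.0244), and with no filter on low counts as well (adjusted p = 0.0217).

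PLAGL1, a zinc finger factor that slows the cell cycle, had 73.6, 74.7 and 71.5 CPM with EHMT1 siRNA and 64.0, 65.2 and 69.4 CPM with scrambled siRNA. NAP1L5, of the nucleosome assembly protein family, had 20.3, 19.9 and 20.1 CPM with EHMT1 siRNA and 17.95, 19.7 and 16.6 CPM with scrambled siRNA. Each EHMT1 siRNA library lay above the scrambled ones for both genes, at log2 fold changes of 0.15 that did not pass (edgeR adjusted p = 0.113 and 0.233). NAP1L5 passed at 0.21 without scrambled replicate 2 (adjusted p = 0.0447) and was at 0.09 without scrambled replicate 3 (adjusted p = 0.503).

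GNAS, the stimulatory G protein alpha subunit, had 1628, 1657 and 1666 CPM with EHMT1 siRNA and 1671, 1844 and 1769 CPM with scrambled siRNA. It lay below the scrambled libraries throughout, at a log2 fold change of -0.09 (SE 0.0574, edgeR adjusted p = 0.327); its imprinted and its biallelic transcripts are counted together. INPP5F, an inositol phosphatase of which a short form is imprinted, had 61.4, 61.6 and 59.3 CPM with EHMT1 siRNA and 60.1, 63.7 and 61.0 CPM with scrambled siRNA. DIRAS3, a growth-restraining small GTPase, had 3.95, 3.64 and 3.20 CPM with EHMT1 siRNA and 4.72, 3.40 and 3.81 CPM with scrambled siRNA. The last 2 overlapped between the groups (edgeR adjusted p = 0.870 and 0.584). L3MBTL1, a reader of methylated histones, had 5, 14 and 8 counts with EHMT1 siRNA and 4, 5 and 3 with scrambled siRNA, under the filter.

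**Figure D4:**
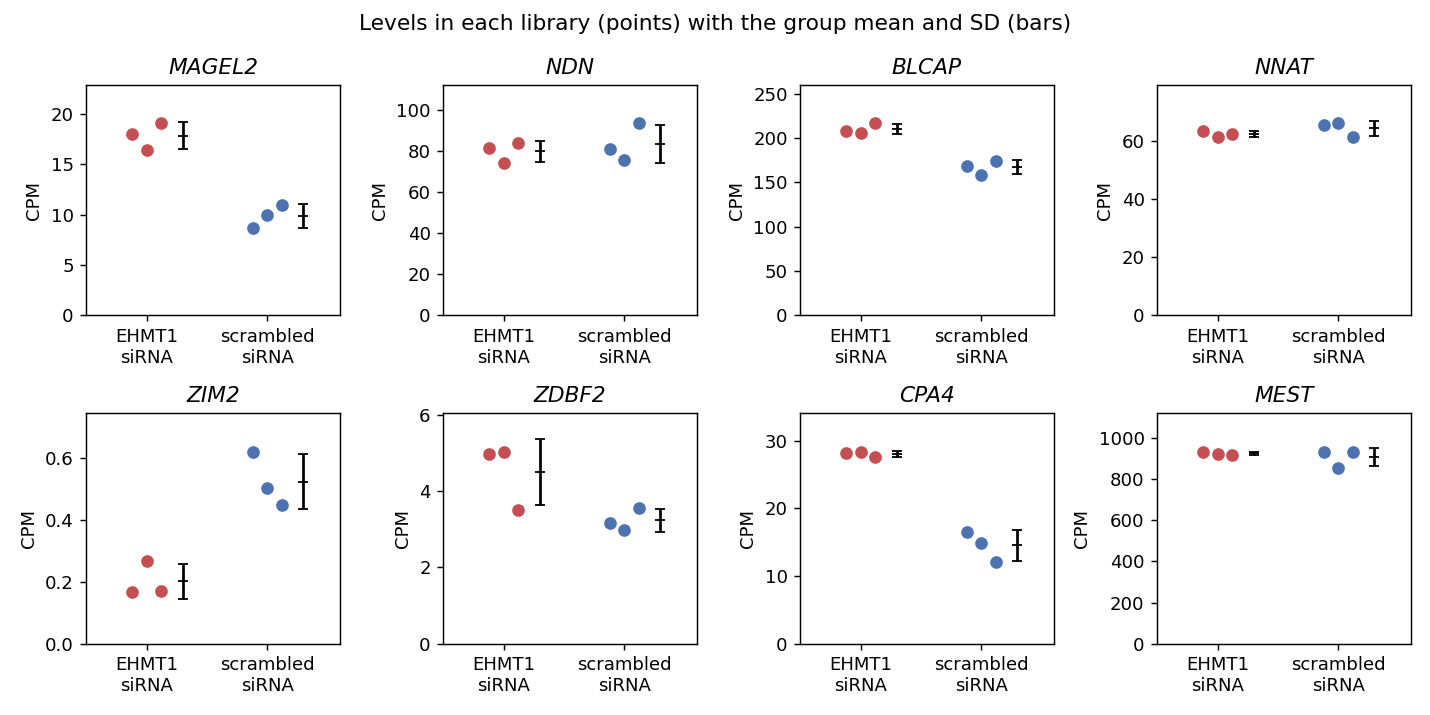
CPM in each library (points) with the group mean and SD (bars beside them) for MAGEL2, NDN, BLCAP, NNAT, ZIM2, ZDBF2, CPA4 and MEST, EHMT1 siRNA left of scrambled siRNA, axes from 0. MAGEL2, BLCAP and CPA4 lie higher with EHMT1 siRNA with no overlap, their neighbours NDN, NNAT and MEST overlap, and ZIM2 lies lower, below 1 CPM in all 6 libraries.

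A list of 40 further genes that are imprinted in some tissue, or flank these domains, had 26 that could be tested, of which 4 rose and 0 fell; 2 were lower at an unadjusted p under 0.05, and DESeq2 called 3 risen and 0 fallen. That is 15.4% of those tested, against the 12.4% of all genes. FAM50B, on 6p25, was at -0.34 without passing (edgeR adjusted p = 0.0528); it fell under 4 of the alternatives, the 1 CPM filter, the replicate block, strand column 4 and without scrambled replicate 1. CPA4, a carboxypeptidase gene near MEST on 7q32, had 28.2, 28.4 and 27.6 CPM with EHMT1 siRNA and 16.6, 14.9 and 12.1 CPM with scrambled siRNA. It rose 1.93-fold, a log2 fold change of 0.95 (SE 0.0935, edgeR adjusted p = 7.00e-06), and the groups did not overlap. In the same region COPG2, a coat protein of vesicles, and the transcription factor gene KLF14 were at 0.05 and -0.04 (edgeR adjusted p = 0.659 and 0.869).

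Near PEG10 on 7q21, PPP1R9A, the actin-binding neurabin, had 24.4, 26.8 and 24.7 CPM with EHMT1 siRNA and 19.7, 18.5 and 21.1 CPM with scrambled siRNA. PON2, a lactonase, had 143, 143 and 141 CPM with EHMT1 siRNA and 126, 113 and 125 CPM with scrambled siRNA. Both rose, at 0.36 and 0.23 on the log2 scale (edgeR adjusted p = 0.00518 and 0.0159). TFPI2, a protease inhibitor, at 0.22 did not pass (edgeR adjusted p = 0.0935), but did with the replicate block and without scrambled replicate 1. NTM, a neuronal adhesion molecule, rose at 0.30 (edgeR adjusted p = 0.0338). Leaving out any EHMT1 siRNA library ended the calls of PON2 and NTM, that of NTM also by DESeq2 and without scrambled replicate 1 or 3, and that of PPP1R9A ended without EHMT1 siRNA replicate 2 (adjusted p = 0.0586).

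Of 16 factors that set or keep imprints, 13 were tested and 0 passed the threshold (edgeR). At an unadjusted p under 0.05 there were 6, or 46.2%, against 25.6% of all genes tested. Groups did not overlap, in either direction, for 8 of the 13, or 61.5%, against 30.9% of all genes tested. DESeq2 called 1, DNMT1, fallen. ZFP57 and DPPA3, a protector of methylation in the early embryo, had 0 counts in all 6 libraries. TRIM28, the co-repressor that ZFP57 recruits, had 476, 459 and 485 CPM with EHMT1 siRNA and 503, 531 and 511 CPM with scrambled siRNA, a log2 fold change of -0.12 (edgeR adjusted p = 0.168). DNMT1, which copies DNA methylation at replication, had 396, 398 and 400.4 CPM with EHMT1 siRNA and 457, 517 and 406 CPM with scrambled siRNA. All EHMT1 siRNA libraries were below the scrambled ones, at -0.21 (edgeR adjusted p = 0.0671). DNMT1 did fall with no filter on low counts and with the replicate block. Without scrambled replicate 3, CTCF, UHRF1 and DNMT1 fell, and without scrambled replicate 2 ARID4B rose.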

How the data were processed

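The libraries were built from poly-A RNA (NEBNext Ultra, per the labels' protocols). The deposited values were raw counts of reads per gene, made by the authors with no normalization and in the layout of a STAR count table, with an unstranded column and 2 strand columns. The submitters' processing notes name STAR 2.5, HTSeq 0.6.1, DESeq2 and hg19; the identifiers are later than that build, so only RefSeq windows carry coordinates. Reads not assigned to a single gene, 20.0% to 21.2% of all, stayed out of library sizes. They include reads that matched more than 1 gene, 9.94% to 10.3% of all.

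The unstranded column went into edgeR 4.0.16 under R 4.3.3. Genes were kept by filterByExpr at a minimum count of 10, libraries scaled by TMM, and groups compared with the robust quasi-likelihood F test, Benjamini-Hochberg adjusted over all 18646 genes tested (threshold 0.05); the fit was checked on simulated data. SE is the absolute log2 fold change over the square root of F. Alternatives were DESeq2 1.42.0, other scalings and filters, the replicate number as a block, strand column 4 and leaving out each library. Groups came from the titles. Nothing in the labels says that replicates came from separate cultures; the p-values rest on the variation among these libraries, possibly technical. Pairs of libraries within a group differed by more than sampling noise (chi-square per degree of freedom 2.96 to 20.8). The members, the 2 further lists and the tests were chosen with earlier results of these data known. All 31 members are named; of the further lists, genes past the threshold and IGF2 and TRIM28, with others named after their values were seen. IPW and PWAR6 of the further list had no match by symbol.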

Additional observations from a re-analysis of the deposited data

How the results depend on the processing

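MAGEL2, BLCAP, CPA4 and EHMT1 kept their direction and their side of the threshold under all 12 alternatives (RLE size factors, no filter, at least 1 CPM in 3 libraries, DESeq2, the replicate block, strand column 4 and each of 6 libraries left out). The count of 1 fallen imprinted gene, the unstranded count of ZIM2, became 0 with the 1 CPM filter, which removes that gene. The number fallen was also 0 with strand column 4, where ZIM2 was too low to test, and with DESeq2, which gave ZIM2 no adjusted p. At a threshold of 0.01 it was 0 as well. With a library left out it was 0 to 2, KCNQ1OT1 being the other without scrambled replicate 2. The count of risen imprinted genes was 2 to 3 over all of these. Over all genes, 492 rose and 525 fell at a threshold of 0.01, and with a library left out the counts ran from 452 to 1625 up and from 484 to 1923 down, the most without scrambled replicate 2 and the fewest without EHMT1 siRNA replicate 2. Beyond the alternatives' own construction, the cause was not tested. Deviations of same-numbered libraries of the groups correlated at 0.0555, 0.0154 and 0.0250, and those of differently numbered ones at -0.0439 to 0.0185. Such small values do not decide whether the replicate numbers pair the samples. With the number as a block, 3 imprinted genes rose, ZDBF2 included (adjusted p = 0.0311), and 1 fell, IGF2 passed (0.17, adjusted p = 0.0475), with 1474 risen and 1632 fallen over all genes. In the list of 40, run with these alternatives after seeing the data, leaving out a library gave 1 to 5 risen and 0 to 1 fallen genes. Depth limits H19, KCNQ1, DLK1, RTL1, PEG3, L3MBTL1 and ZIM2.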
